A study of Mus musculus with 2 samples.

Results

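Neutrophils carry their antimicrobial proteins in granules that are filled in a fixed order while the cells mature in the bone marrow. Transcripts of 10 such genes were examined in brain mononuclear cells of CD47 KO and WT mice. The genes were chosen by name, *Mpo*, *Elane* and *Prtn3* for the early granules, *Ltf*, *Camp*, *Ngp* and *Lcn2* for the later ones, and *S100a8*, *S100a9* and *Retnlg* for abundant products that neutrophils make late or keep in the cytosol. Every probe set that the platform annotation assigns to exactly 1 of these symbols was taken. This gave 9 probe sets for 9 genes, out of 18193 genes with a named probe set on the array. *Retnlg* had no named probe set and is not analysed here.

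The array was the GeneChip Mouse Genome Array, where each transcript is read by a probe set, a group of short probes. The CD47 KO sample was RNA pooled from 6 *Cd47*-/- mice aged 12 to 16 wks. The WT sample was RNA pooled from 7 mice aged 10 to 15 wks. Neither group is labelled as treated, the sources used here do not give the strain, and the knockout was not limited to a cell type. Whole brain was digested, and the cells that gathered at the interface of a Percoll density gradient were collected as brain mononuclear cells, a fraction in which microglia are enriched. RNA was amplified from 20 ng per pool and hybridised to 1 array per genotype. With no replicates, no p-value, SD or test of any difference between genotypes can be given. The values are linear MAS5 signals, which measure how bright a probe set is, and the Log2 ratio is that of CD47 KO over WT. Transcript levels of different genes cannot be read off from their signals.

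Azurophil or primary granules are formed at the promyelocyte stage, and myeloperoxidase and the serine proteases of the elastase family are stored there. Specific or secondary granules follow at the myelocyte stage and hold lactoferrin, cathelicidin and lipocalin-2. Transcription of the azurophil genes is largely shut off before the neutrophil leaves the marrow. S100A8 and S100A9 form a calcium-binding complex that fills the cytosol of the mature cell and is found in monocytes too. Few neutrophils are present in the parenchyma of the healthy brain, while blood vessels, meninges and the marrow of the skull hold them.

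The libraries were compared with their labels before the genes were read. *Cd47* had Log2 ratios between -1.86 and -1.45 on its 5 probe sets, which still had signals of 334 to 1688 in the CD47 KO pool and 1017 to 5816 in the WT pool. Whether they read exons that the knockout allele keeps was not examined here. *Xist*, the RNA of X inactivation in females, had signals of 6530 in the CD47 KO pool and 7070 in the WT pool on its brightest probe set, although both pools are labelled male. *Eif2s3y*, a Y-linked gene, had 461 in the CD47 KO pool and 189 in the WT pool on its brightest probe set. Microglial markers were bright in both genotypes, with *Csf1r*, the receptor of the microglial survival factor, at 15949 in CD47 KO cells and 15185 in WT cells. The 9 hybridization control probe sets had Log2 ratios from -0.01 to 0.15. The 3'/5' signal ratio of *Actb*, a sign of RNA integrity, was 1.05 in the CD47 KO pool and 1.11 in the WT pool, and that of *Gapdh* was 2.16 in the CD47 KO pool and 2.06 in the WT pool. Probe sets are called expressed here if they were at or above the array median, 146 in CD47 KO cells and 161 in WT cells, on at least 1 array. All 9 neutrophil probe sets were expressed, and all 9 reached the median in both genotypes.

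Among the 9 genes, those of early granules were lower in CD47 KO cells, those of later granules were slightly lower and *S100a8* and *S100a9* differed little. The median Log2 ratio was -1.05 over the 3 early genes, -0.25 over the 4 later granule genes and 0.13 over *S100a8* and *S100a9*. The median over all 11695 expressed genes was 0.00. Of the 9 probe sets, 7 were lower and 2 higher in CD47 KO cells, where 49.3% of all 21167 expressed probe sets were lower. More than 2-fold lower were 2 of the 9, against 5.49% of all expressed probe sets, and more than 2-fold higher were none of the 9, against 3.95%. The dimmest probe sets pass 2-fold most easily. In the brightest 25% of expressed probe sets, where 8 of the 9 lie, 0.699% were more than 2-fold lower, 0.189% more than 2-fold higher and 41.0% lower by any amount.

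**Figure D1:**
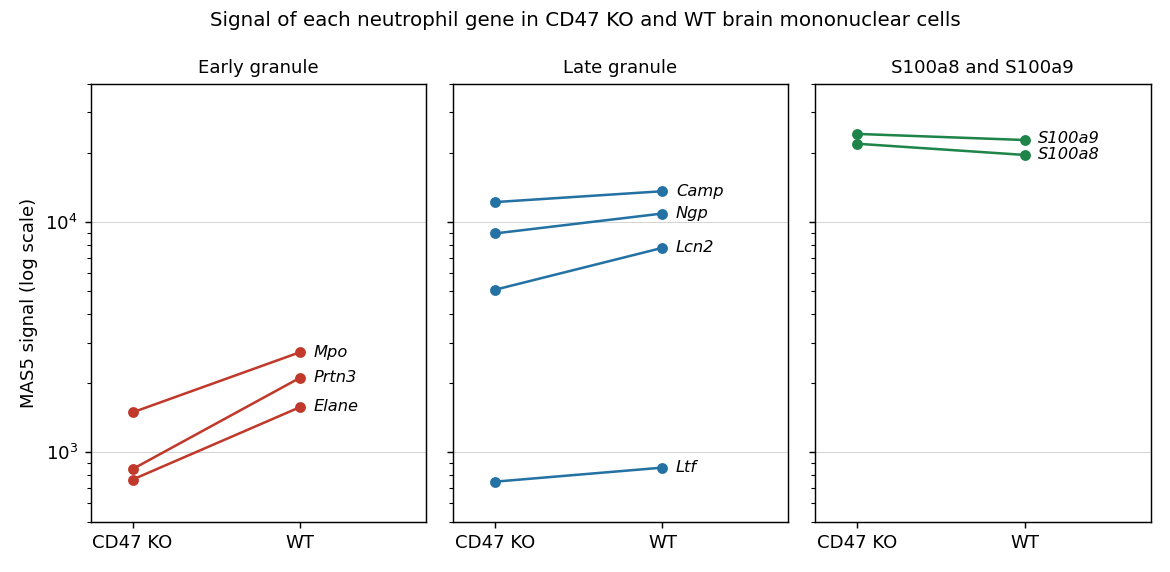
MAS5 signal (vertical axis, log scale) of the 9 neutrophil probe sets in the CD47 KO and WT pools, 1 array each, joined by a line per gene and split by granule stage. The 3 early genes were lower in CD47 KO cells by 1.83-fold to 2.50-fold, while *S100a8* and *S100a9* lay at 19600 or more in both genotypes. Heights of different genes are not comparable as transcript levels.

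To show the control regions of the genes at the ends of this range, RefSeq promoters (GRCm38.p6) are given for the 3 early genes and for *S100a8* and *S100a9*, each from 250 bases before to 50 bases after the gene's start. All 10 genes had an entry in the table. Capitals mark matches on either strand to 4 short motifs known from granulocyte genes, TTNNGNAA for C/EBP factors, GAGGAA for PU.1, TGTGGT for RUNX factors and TAACNG for MYB. No matches overlap in these 5 sequences.
Prtn3 promoter, chr10:79879417-79879716, plus strand: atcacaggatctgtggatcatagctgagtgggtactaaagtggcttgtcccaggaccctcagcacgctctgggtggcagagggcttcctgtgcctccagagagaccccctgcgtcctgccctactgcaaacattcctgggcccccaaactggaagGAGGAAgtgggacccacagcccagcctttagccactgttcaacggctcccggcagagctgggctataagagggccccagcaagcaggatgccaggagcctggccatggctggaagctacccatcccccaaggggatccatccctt
Elane promoter, chr10:79886062-79886361, plus strand: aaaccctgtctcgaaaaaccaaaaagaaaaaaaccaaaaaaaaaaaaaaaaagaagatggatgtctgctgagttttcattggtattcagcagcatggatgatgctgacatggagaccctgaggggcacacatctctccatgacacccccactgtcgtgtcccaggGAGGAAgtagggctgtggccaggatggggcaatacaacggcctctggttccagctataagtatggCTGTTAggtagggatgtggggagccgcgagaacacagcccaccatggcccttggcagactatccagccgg
Mpo promoter, chr11:87793534-87793833, plus strand: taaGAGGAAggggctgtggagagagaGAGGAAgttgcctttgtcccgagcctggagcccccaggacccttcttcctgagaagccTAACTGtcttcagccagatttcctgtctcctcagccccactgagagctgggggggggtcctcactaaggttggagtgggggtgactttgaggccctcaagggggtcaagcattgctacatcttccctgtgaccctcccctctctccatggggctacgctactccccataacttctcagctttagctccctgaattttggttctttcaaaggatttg
S100a8 promoter, chr3:90668821-90669120, plus strand: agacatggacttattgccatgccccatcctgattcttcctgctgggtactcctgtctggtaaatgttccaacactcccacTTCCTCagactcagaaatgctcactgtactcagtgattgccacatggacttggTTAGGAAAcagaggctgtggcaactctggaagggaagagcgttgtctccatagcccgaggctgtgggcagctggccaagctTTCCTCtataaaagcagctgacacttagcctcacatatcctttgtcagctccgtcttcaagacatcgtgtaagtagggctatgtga
S100a9 promoter, chr3:90695672-90695971, minus strand: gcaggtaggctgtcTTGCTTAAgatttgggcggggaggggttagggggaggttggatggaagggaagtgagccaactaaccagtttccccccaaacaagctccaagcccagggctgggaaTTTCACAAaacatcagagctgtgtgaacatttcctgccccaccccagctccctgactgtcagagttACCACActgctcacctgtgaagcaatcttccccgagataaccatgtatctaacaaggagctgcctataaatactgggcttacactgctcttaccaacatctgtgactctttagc

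The GAGGAA motif was matched 1 time in the *Prtn3* and *Elane* promoters and 2 times in the *Mpo* promoter. The match began 95 bases before the start in *Prtn3* and 85 bases before it in *Elane*, in the same orientation as the gene in both. *S100a8* held 2 matches, and *Ltf* and *Lcn2* held 1 each. A match is present in 28.3% of all 32851 promoters of this length. The C/EBP motif was matched in none of the 3 early promoters, 1 time in *S100a8* and 2 times in *S100a9*, and is present in 40.7% of all promoters. Among the other members *Ngp* held 3 matches to it, *Ltf* 2, *Lcn2* 1 and *Retnlg* 1, and *Camp* held none. MYB matches were found in *Elane* and *Mpo*, against 23.3% of all promoters, and a RUNX match in *S100a9* and *Ltf*, against 16.8%. These are matches of letters and were not tested as binding sites. *Prtn3* and *Elane* are adjacent genes on chromosome 10, and *S100a8* and *S100a9* are adjacent on chromosome 3, with no annotated gene between them in either case. *Camp*, *Ngp* and *Ltf* all lie on chromosome 9, with 18 annotated genes between *Camp* and *Ngp* and 25 between *Ngp* and *Ltf*.

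*Prtn3*, which encodes proteinase 3, a serine protease of azurophil granules, had a signal of 846 in CD47 KO cells and 2113 in WT cells (probe set 1419669_at). Its Log2 ratio of -1.32, or 2.50-fold lower, was the lowest of the 9. Only 17 of the 5292 probe sets in the brightest 25% had a lower ratio. *Elane*, its neighbour in the genome, encodes neutrophil elastase, which degrades bacterial proteins and extracellular matrix. Its signal was 762 in CD47 KO cells and 1575 in WT cells (1422928_at). The Log2 ratio of -1.05 lay just past 2-fold, and 29 of the 5292 probe sets were lower. The mean signal of *Elane* lay just above 1156, the lower edge of this bright group. In the next dimmer group the SD of the Log2 ratio was larger, at 0.46. *Mpo* encodes myeloperoxidase, the enzyme that makes hypochlorous acid from hydrogen peroxide. It had a signal of 1492 in CD47 KO cells and 2728 in WT cells (1415960_at), a Log2 ratio of -0.87 that stayed short of 2-fold, with 48 of the 5292 lower. The SD of the Log2 ratio over that bright group was 0.32. The SD of its probe sets around the mean of all expressed probe sets of their gene was 0.32 as well. Each of the 9 genes was read by a single probe set, so its ratio could not be checked on another one.

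The later granule genes were closer to equal between genotypes. *Lcn2*, which encodes lipocalin-2, a protein that withholds iron from bacteria by binding siderophores, differed most. Its signal was 5083 in CD47 KO cells and 7740 in WT cells (1427747_a_at), a Log2 ratio of -0.61, and 2.42% of the bright group had a lower ratio. *Lcn2* is also made by astrocytes and epithelial cells under inflammation. *Ngp*, encoding neutrophilic granule protein, a relative of the cathelicidins, had 8933 in CD47 KO cells and 10909 in WT cells (1418722_at), a Log2 ratio of -0.29. *Camp* encodes the precursor of the antimicrobial peptide CRAMP. It had 12226 in CD47 KO cells and 13634 in WT cells (1419691_at), a Log2 ratio of -0.16, with 19.9% of the bright group lower. *Ltf*, encoding the iron-binding protein lactoferrin, was the dimmest of these probe sets, with 746 in CD47 KO cells and 859 in WT cells (1450009_at). Its Log2 ratio of -0.20 lay well inside the SD of 0.46 of its own brightness group.

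*S100a8* and *S100a9* were the only genes of the set with a higher signal in CD47 KO cells. *S100a8* had 21931 in CD47 KO cells and 19600 in WT cells (1419394_s_at), a Log2 ratio of 0.16. *S100a9* had 24191 in CD47 KO cells and 22757 in WT cells (1448756_at), a Log2 ratio of 0.09 that became -0.01 after loess normalization. Both differences were smaller than the SD of their brightness group. They stood at positions 16 and 7 among the 45101 probe sets of the CD47 KO array and 28 and 9 on the WT array. Signals this high lie near the top of the measured range, which ended at 32843 in the CD47 KO pool and 30800 in the WT pool, and whether that narrowed their ratios was not tested. The *S100a8* probe set carries the suffix _s_at, which marks probes that may match more than 1 transcript.

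Among the measured members only, the ratios of the early and the later genes did not overlap. The early genes lay between -1.32 and -0.87 and the 6 others between -0.61 and 0.16, a gap of 0.26 between *Mpo* and *Lcn2*. That gap was smaller than the SD of 0.32 of the brightest group. Outside the members, the later granule genes *Pglyrp1* and *Itgb2l* had -1.06 and -0.94, inside the early range. The median over the 12 other specific and gelatinase granule genes expressed was -0.59, with 1 higher. Over the 6 other azurophil granule genes expressed it was -0.04, with 1 higher. Outside the members the later list thus had the lower median, the reverse of the order among the members. Among the members, the median of the 6 later genes minus that of the 3 early genes was 0.87. The genes were few and chosen by name, and this difference was not tested. In a bulk sample, fewer cells of a type and less RNA per cell cannot be told apart.

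**Figure D2:**
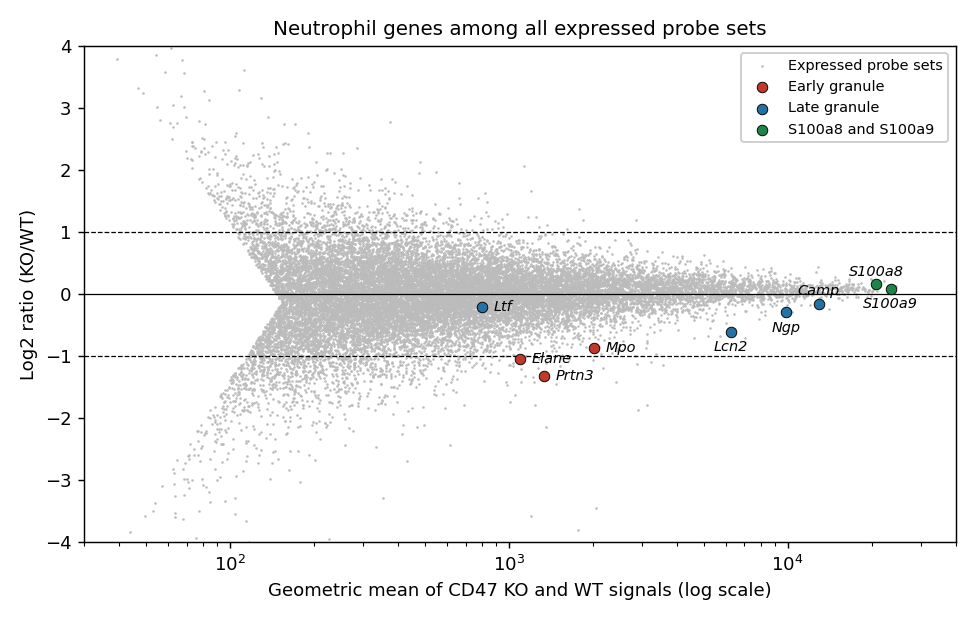
Change of all expressed probe sets as Log2 ratio (KO/WT) on the vertical axis, with the geometric mean of the CD47 KO and WT signals on the horizontal axis (log scale), the 9 neutrophil genes in colour and 2-fold marked by dashed lines. *Prtn3*, *Elane* and *Mpo* lie at the lower rim of the cloud at -1.32, -1.05 and -0.87, and *S100a8* and *S100a9* lie at its bright end near 0. The vertical axis ends at 4 and leaves out 27 probe sets.

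Other azurophil granule genes were divided. *Ctsg*, encoding cathepsin G, a further serine protease of these granules, had a signal of 1952 in CD47 KO cells and 4261 in WT cells, a Log2 ratio of -1.13. *Ms4a3*, a membrane protein gene of granulocyte and monocyte precursors, had 1077 in CD47 KO cells and 2203 in WT cells, a Log2 ratio of -1.03. Both lay within the range of the 3 early genes. The other 4 expressed genes of this list encode granule components that macrophages and microglia make as well. The lysozyme gene *Lyz2* had a Log2 ratio of 0.00, the cathepsin C gene *Ctsc* -0.04 on its brightest probe set (0.08 and 0.73 on the others) and the serglycin gene *Srgn* 0.11. *Lyz1* had -0.04, which is uncertain since its sequence is nearly identical to that of *Lyz2*. Over the 6 genes 5 were lower, 2 of them more than 2-fold, with a median of -0.04. *Lyz2*, *Lyz1* and *Ctsc*, counted as lower, had -0.04 to 0.00. Of all expressed genes 49.7% were lower, 5.46% more than 2-fold lower and 3.56% more than 2-fold higher on their brightest probe set. All 6 genes were read on bright probe sets. Of the brightest 25% of expressed probe sets, 41.0% were lower and 0.699% more than 2-fold lower.

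Other genes of specific and gelatinase granules were mostly lower. Of 12 expressed, 11 were lower, 1 of them more than 2-fold, and 1 was higher, with a median Log2 ratio of -0.59. *Pglyrp1*, encoding a peptidoglycan recognition protein, had a signal of 1387 in CD47 KO cells and 2884 in WT cells, a Log2 ratio of -1.06. *Hp*, the haptoglobin gene, had -0.86 and *Anxa1*, encoding annexin A1, which is also made by microglia, had -0.59. *Chil3*, a chitinase-like gene, had -0.29, close to *Ngp*. *Cyba*, encoding a subunit of the phagocyte NADPH oxidase, had 0.10, and *Cybb*, encoding its catalytic partner, had -0.62, -0.65 and 0.04 on its 3 probe sets. The collagenase gene *Mmp8* had -0.43 and the gelatinase gene *Mmp9* had -0.43 and -0.19 on its 2 probe sets. *Cybb*, *Mmp8* and *Mmp9* were singled out after their values were seen. *Itgb2l*, an integrin subunit gene, had 90.8 in CD47 KO cells and 174 in WT cells, a Log2 ratio of -0.94 on its single expressed probe set. The ratios of *Pglyrp1* and *Itgb2l* lay inside the range of the 3 early genes and that of *Hp* just above it.

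**Figure D3:**
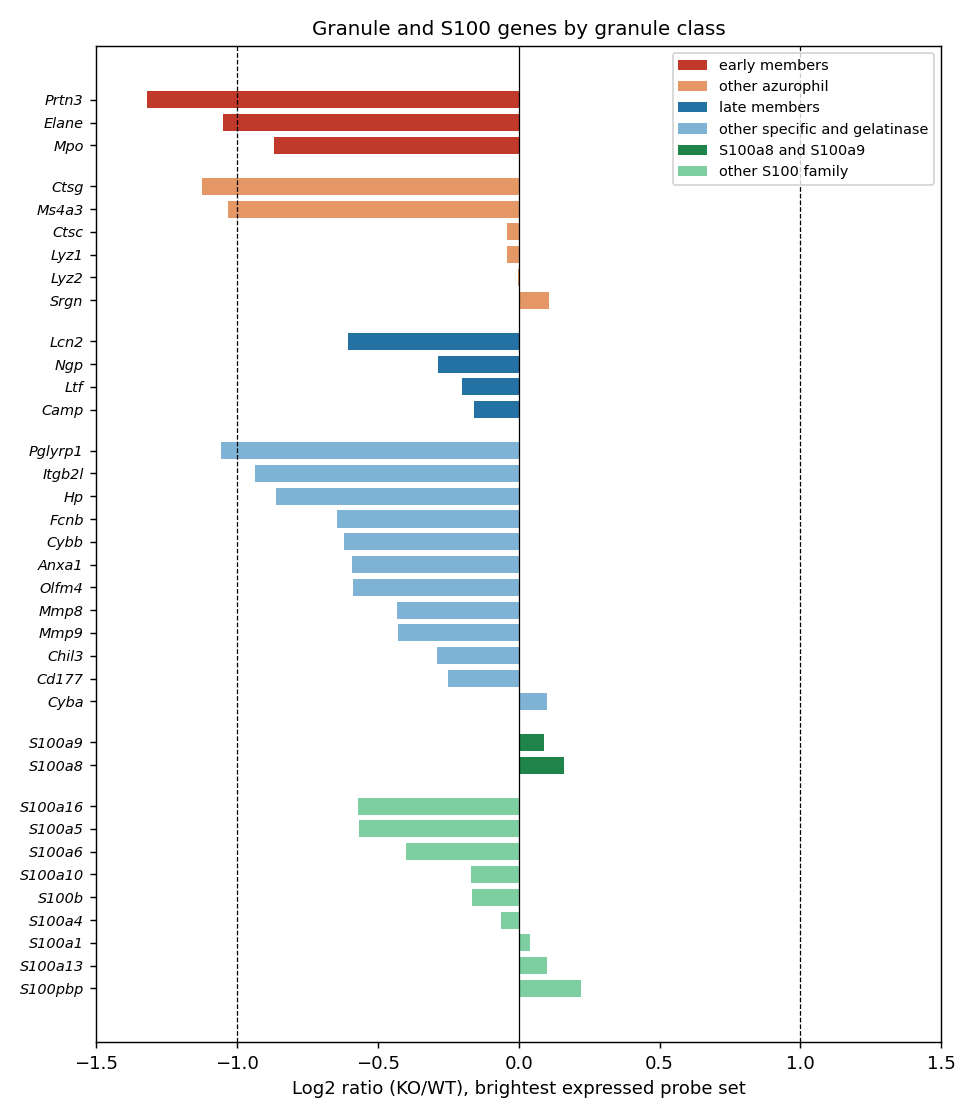
Log2 ratio (KO/WT) of the brightest expressed probe set of each gene, by granule class, with 2-fold marked by dashed lines. The early genes, *Ctsg*, *Ms4a3*, *Pglyrp1*, *Itgb2l* and *Hp* lie between -1.32 and -0.86, while *S100a8* and *S100a9* lie at 0.16 and 0.09. *S100pbp* encodes a binding partner and is no S100 protein itself.

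In the list of other S100 genes, which also holds the binding partner gene *S100pbp*, 9 were expressed, 3 higher and 6 lower. None passed 2-fold, and *S100pbp* was the highest at 0.22. *S100a6*, a gene of proliferating and stromal cells, had a signal of 6887 in CD47 KO cells and 9080 in WT cells, a Log2 ratio of -0.40. *S100a4* had -0.06, *S100a10* -0.17 on its brightest probe set and *S100a1* 0.04. *Retnla*, a relative of *Retnlg* that alternatively activated macrophages express, had 1104 in CD47 KO cells and 1211 in WT cells, a Log2 ratio of -0.13, and *Retn* and *Retnlb* were not expressed by the signal rule.

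Genes for partners of these proteins differed less than the early granule genes. Among receptors of the products, 5 of 9 expressed genes were higher and 4 lower, with a median Log2 ratio of 0.06 (-0.02 under stricter signal thresholds) and none past 2-fold. *Fpr2*, the formyl peptide receptor gene that responds to the *Camp* product, had -0.31, *Bsg*, a receptor gene for S100A9, had -0.02, *Emb*, its relative, 0.06, and *Slc22a17*, the lipocalin-2 receptor gene, -0.06. Inhibitors of granule proteases had 1 higher and 4 lower of 5 expressed. *Slpi*, encoding an inhibitor of elastase and cathepsin G, had a signal of 1399 in CD47 KO cells and 2239 in WT cells, a Log2 ratio of -0.68, while *Serpinb1a*, an intracellular inhibitor gene of the same proteases, had 0.16. The other 2 named inhibitors, *Serpina3n* and *Serpinb6a*, had -0.01 and -0.03. Of the transcription factors of granulocyte development, 6 of 8 expressed were higher and 2 lower, with a median of 0.22. *Cebpa*, needed for the step into the granulocyte lineage, had 0.47, and *Cebpd* had -0.36. *Cebpb* and *Cbfb* had -0.02 and 0.01. Microglia express several of these factors. *Gfi1* had 58.8 in CD47 KO cells and 143 in WT cells, below the array median in both, and *Cebpe* had no named probe set.

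Markers of the neutrophil surface were set beside the granule genes. Of 16 listed, 10 had a named probe set and 8 were expressed, 2 higher and 6 lower. The median Log2 ratio was -0.24, and none passed 2-fold on its brightest probe set. Summed over the 10 with a named probe set, the signal was 23016 in CD47 KO cells and 25299 in WT cells, most of it from *Cxcr4*, *Itgb2* and *Fpr2*. *Csf3r*, the receptor gene of the growth factor G-CSF, had 905 in CD47 KO cells and 941 in WT cells, a Log2 ratio of -0.06. *Cxcr2*, the chemokine receptor of mature neutrophils, had 40.3 in CD47 KO cells and 87.6 in WT cells, below the median of both arrays. *Ly6g*, the usual neutrophil marker of the mouse, had no named probe set. On dim probe sets *Trem1* had -0.86, or -1.24 on its other one, and *Clec4e* had -0.75, while the brighter *Clec4d* had 0.40. *Csf3r*, *Cxcr2*, *Ly6g*, *Trem1*, *Clec4e* and *Clec4d* were named after their values or annotation were seen. The bright genes of the list, *Cxcr4*, *Itgb2*, *Fpr2* and *G0s2*, had -0.18, 0.13, -0.31 and -0.49, and the first 3 of these are expressed by microglia or other leukocytes too.

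Monocytes share *S100a8* and *S100a9* with neutrophils, and their precursors share *Mpo*, *Elane*, *Prtn3*, *Ctsg* and *Ms4a3*. Of 7 expressed monocyte markers 6 were lower, with a median of -0.48 and none past 2-fold, where 49.7% of all expressed genes were lower. Their summed signal was 12062 in CD47 KO cells and 15107 in WT cells, most of it from *Plac8*. *Plac8* had -0.27, *Ms4a6c* -0.48, *Fn1* -0.54 and *Ms4a4c* -0.55, or 0.19 on its other probe set of like brightness. *Ly6c2*, the usual monocyte marker, had no probe set of its own. Microglial markers ran the other way, with 9 of 9 higher, none past 2-fold, a median of 0.19 and a summed signal of 78372 in CD47 KO cells and 66663 in WT cells. All were read on bright probe sets, and of the brightest 25% of expressed probe sets 41.0% were lower by any amount. The median was 0.11 after loess normalization, and *Sall1* had 0.02, or -0.58 on its dimmer probe set. *Olfml3*, *Fcrls* and *Siglech* had 0.43, 0.34 and 0.19. The part of these cells in the granule ratios was not tested.

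Transcripts of other marrow and blood cells were set beside these. Of 5 expressed B cell precursor genes 3 were higher and 2 lower, with a median Log2 ratio of 0.00, which lay between -0.19 and -0.01 in the alternative settings that turned its sign. *Vpreb1*, a surrogate light chain gene, had a signal of 5800 in CD47 KO cells and 5787 in WT cells. *Igll1*, its partner, had a Log2 ratio of 0.10, and *Dntt*, encoding the terminal transferase of antigen receptor assembly, had 0.43 (0.50 and -0.30 on its other probe sets). *Il7r* had -0.29 and *Rag1*, the recombinase gene, had -0.74, both on dimmer probe sets. Erythroid genes had 6 of 8 expressed higher, 1 of them more than 2-fold, and a median of 0.32, with the globin genes *Hbb-b2* and *Hba-a2* at 0.28 and -0.03 and the heme synthesis gene *Alas2* at 0.42. *Ermap*, an erythroid membrane protein gene, had 705 in CD47 KO cells and 307 in WT cells, a Log2 ratio of 1.20. Of 6 progenitor genes, 3 were higher and 3 lower, with *Cd34* at 0.42, *Flt3* at -3.00 with a signal of 31.8 in CD47 KO cells and 255 in WT cells, *Gata2* at -1.17 and *Meis1* at 1.01. The last 3 of these are dim probe sets. Proliferation genes had 4 of 9 higher and a median of -0.04, or 0.02 with probe sets of a gene averaged. Their 4 brightest, *Stmn1*, *Pcna*, *Rrm2* and *Mcm5*, had -0.04, 0.08, 0.09 and -0.28.

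**Figure D4:**
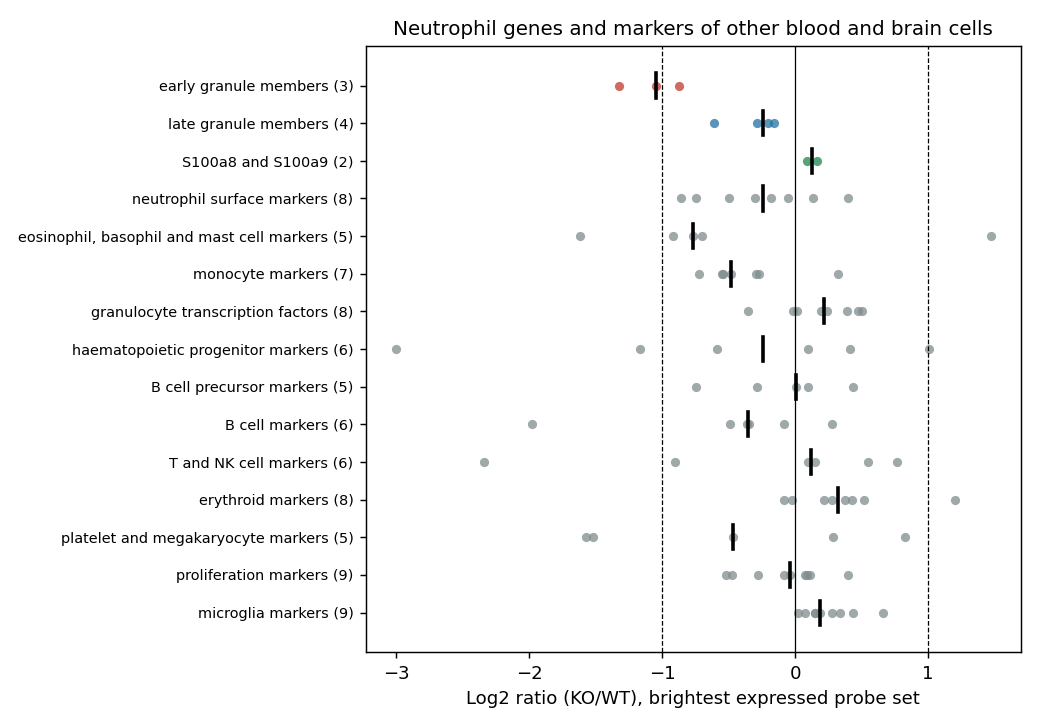
Log2 ratio (KO/WT) of expressed genes (points, number in parentheses) and their median (bars) for the neutrophil genes and for marker lists of other cells, by the brightest probe set, with 2-fold marked by dashed lines. The early granule genes have a median of -1.05. Lower medians among the other lists are -0.77 for eosinophil, basophil and mast cell, -0.48 for monocyte, -0.47 for platelet and -0.35 for B cell markers. Neutrophil surface markers have -0.24, B cell precursor genes 0.00, microglial markers 0.19 and erythroid genes 0.32. With 1 array per genotype no test was made between lists.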

How the data were processed

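RNA of brain mononuclear cells, pooled by genotype, was hybridised to 1 array for CD47 KO and 1 for WT. The deposited values are MAS5 signal intensities on a linear scale, which the authors made with the Expression Console Software (version not given in the sources used here). After trimming 2% at each end, the mean was 500.002 on both arrays. Detection calls were not used. Of 45101 probe sets, 64 are controls. The platform annotation gives exactly 1 symbol to 34945, several to 932 and none here to 9160. Of those with 1 symbol, 34741 matched the RefSeq gene table (GRCm38.p6), and symbols were updated through it.

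The Log2 ratio (KO/WT) was taken from the deposited signals with no offset, and a gene was read by its brightest expressed probe set. Microarray values of 2 arrays allow no test. The number of arrays limits precision. Brightness groups hold 25% of expressed probe sets each, by mean signal. The 10 genes and 21 further lists were chosen with earlier results of these data known. Lists were written by hand from general knowledge. Of the 217 genes in all lists, 177 had a named probe set. Named are all members and, from the lists described, the genes past 2-fold and up to 4 others among those with the highest mean signal. Some lists have fewer such names, and the bone and endothelial lists have none. Names added after values were seen are marked, except *Gfi1*, *Cebpe*, *Retn*, *Retnlb*, *Ly6c2*, *S100pbp*, *Itgb2l*, *Rag1*, *Sall1*, *Cpa3*, *Tpsb2*, *Cma1* and *Mcpt4*, which were added too. Results of the lists for T and NK cells, bone and endothelium are given in the closing part only. The calculation was tested on simulated arrays. The values of the members and the median of each list were recomputed under 10 alternatives (9 for *S100a8*) in scaling (median centring, quantile, loess with a fraction of 0.4), low signals (the 25th percentile added, or used as a floor), probe set choice and signal threshold (75th percentile on either array, median on both, none). Python 3.11.15, numpy 2.4.6, pandas 2.3.3 and statsmodels 0.14.6 were used.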

Additional observations from a re-analysis of the deposited data

How the results depend on the processing

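Under the 10 alternatives the median Log2 ratio (KO/WT) stayed between -1.06 and -1.01 for the 3 early granule genes, between -0.30 and -0.24 for the 4 later granule genes, and between 0.03 and 0.13 for *S100a8* and *S100a9*. The later minus the early median stayed between 0.82 and 0.87, and 2 probe sets were past 2-fold in each. No value of a member or of these groups moved by more than 0.32, the SD of probe sets in the brightest group around the mean of their gene. Among these, *S100a9* alone changed sign, at -0.01 after loess. Without probe sets ending in _s_at or _x_at, *S100a8* was lost and 8 probe sets were left. As every measured member had 1 probe set, averaging over probe sets changed none of them. The floor for low signals and the other signal thresholds changed none either, because every member was bright enough to pass them. Apart from the loss of *S100a8*, only the scalings and the percentile added to both signals could move a member. The ranges and the count past 2-fold were thus tried by those settings only. No scaling moved the median of all expressed probe sets past 0.03. Of 210 medians of the 21 other lists under these settings, 7 moved by more than that SD, in 4 lists. The progenitor median of -0.25 became 0.25 and 0.09 under the stricter signal thresholds, the stefin median of -0.73 became 0.33 under both, and without a threshold the medians of T and NK cell, resistin family and stefin genes were -0.40, -2.21 and -0.39. Of the 210 medians 16 changed sign, in 7 lists, which also include B cell precursor, proliferation, inhibitor and receptor genes, whose medians as first given were within 0.06 of 0. Counts over the lists were not recomputed. Leaving out a replicate was not possible with 1 array per genotype, and none of these settings measures the spread between animals. No paired analysis was possible because each genotype has 1 pooled array.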

Other observations

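The expressed granule genes of other granulocytes were also lower in CD47 KO cells, while their receptor genes went both ways. *Prg2*, encoding the major basic protein of eosinophil granules, had a signal of 5506 in CD47 KO cells and 8944 in WT cells, a Log2 ratio (KO/WT) of -0.70. *Mcpt8*, a serine protease gene of basophils and of the same enzyme family as *Ctsg*, had 830 in CD47 KO cells and 1411 in WT cells, a Log2 ratio of -0.77. *Fcer1a*, the IgE receptor gene of basophils and mast cells, had 345 in CD47 KO cells and 655 in WT cells, a Log2 ratio of -0.92. *Epx*, the eosinophil peroxidase gene and a relative of *Mpo*, had 79.6 in CD47 KO cells and 244 in WT cells, a Log2 ratio of -1.62 on a dim probe set. *Siglecf*, an eosinophil receptor gene that activated microglia can also express, was higher, with 570 in CD47 KO cells and 206 in WT cells and a Log2 ratio of 1.47. Of the 11 listed genes with a named probe set, 5 were expressed and 4 of them were lower, with a median of -0.77. Among all expressed genes, 49.7% were lower. The defining mast cell genes *Cpa3*, *Tpsb2*, *Cma1* and *Mcpt4* were below the array median in both genotypes.

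The stefin genes of neutrophil cytosol differed in direction. *Stfa3* had 133 in CD47 KO cells and 461 in WT cells, a Log2 ratio of -1.79, and *Stfa2l1* had 1154 in CD47 KO cells and 921 in WT cells, a Log2 ratio of 0.33. The stefins are near-identical copies of each other, so these values are uncertain.

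Of 5 expressed platelet genes 2 were higher and 3 lower, with a median of -0.47. *Ppbp* and *Gp1bb* had Log2 ratios of -1.52 and -1.57 on dim probe sets, while *Pf4*, a chemokine gene of platelet granules, had -0.47 with a signal of 888 in CD47 KO cells and 1229 in WT cells. *Gp9* and *Clec1b*, membrane protein genes of platelets, had 0.28 and 0.83. Of 6 expressed B cell markers 5 were lower and 1 higher, with a median of -0.35. *Ms4a1*, on a dim probe set, had -1.98, while the brighter *Cd79b*, *Cd79a* and *Vpreb3* had -0.09, -0.34 and -0.49. Of 6 expressed T and NK cell markers 4 were higher, with a median of 0.12. In the CD3 complex *Cd3g* had 0.77 and *Cd3d* 0.54, while *Cd3e*, on a dimmer probe set, had -2.34. The median was -0.37 over 7 endothelial markers and -0.43 over 4 bone markers. The part of these cells in the ratios of the granule genes was not tested.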
